A study of Mus musculus with 12 samples.

Results

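The mevalonate pathway enzymes are described here in B16F10 cells, a mouse melanoma line grown in culture. The set was fixed by name and holds 8 genes of the 24421 gene symbols counted, namely Acat2, Hmgcs1, Mvk, Pmvk, Mvd, Idi1, Fdps and Ggps1. The rule is a list of names and uses no measured value, although the list was drawn up with earlier results of these data known. All 8 were among the 11638 genes that passed the filter on low counts. Messenger RNA was sequenced from 12 libraries, with 3 independent repeats in each of 4 groups. Control cells received the solvent DMSO. DAC cells received 5-aza-2′-deoxycytidine, an inhibitor of DNA methyltransferases, at 25 nM for 72 h. SFN cells received sulforaphane, an isothiocyanate from cruciferous plants, for 48 h. DAC+SFN cells received 25 nM DAC for 72 h, with 5 µM SFN over the last 48 h. The sample labels give 5 nM for SFN alone, while the study's methods give the micromolar dose of the combination for both groups, so comparisons of SFN with DAC+SFN may mix 2 SFN doses if the labels are right. All groups share the same line and serum-containing medium.

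The mevalonate pathway builds isoprenoids from acetyl-CoA. Acetyl units are joined to HMG-CoA, which is reduced to mevalonate, phosphorylated and decarboxylated to isopentenyl pyrophosphate, and then condensed into farnesyl and geranylgeranyl pyrophosphate. Farnesyl pyrophosphate feeds sterol synthesis, and both long prenyl chains are attached to proteins such as small GTPases. Transcription of most genes of the route is known to be raised by the SREBP factors when cell sterol is low.

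The libraries held 15880957 to 27291436 counts. Library numbers in the labels rise with the replicate number, so a batch that followed them cannot be told apart from it. Replicate 2 stood apart: 26.1% of all genes differed between replicates 2 and 1 and 28.8% between 3 and 2, against 6.56% between 3 and 1, so results are also given without it. All 7 melanocyte markers passed the filter and summed to 21399 to 30137 counts per 1000000 counts, after scaling (CPM). No immune or endothelial marker passed, with Adgre1 and Cdh5 at 0 in every library. Of the 4 epithelial markers 1 passed, and that list summed to 0.602 to 1.59 CPM. Fibroblast markers summed to 19.6 to 366 CPM and followed the replicate number, mainly through the collagen gene Col1a1. The fibroblast markers Col1a2 and Pdgfra fell with SFN, by 0.74 and 0.54 on the log2 scale in the mean SFN difference, and their part in the results was not tested. The 7 targets of NRF2, the factor that SFN is known to activate, were all called higher in the mean SFN difference. Of all genes 29.6% were called there in either direction and 13.5% were called lower. In SFN against control 6 of 7 were called higher, against 13.9% of all genes called in either direction and 5.65% called lower.

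The 5′ flanking DNA of 4 enzymes is shown because the groups compared below include an enzyme with the letters of a sterol regulatory element (Hmgcs1), one that shares its upstream DNA with a neighbour (Mvk), a later step that moved with them (Mvd) and the enzyme that moved least (Ggps1). The sequences are RefSeq promoter DNA of GRCm38.p6, read 5′ to 3′ on the strand of the gene and cut where an annotated exon begins. They lie at chr13:119690101-119690350 (plus strand), chr5:114444061-114444268 (plus), chr8:122443423-122443672 (minus) and chr13:14063490-14063603 (minus), in that order. Capitals mark matches to a sterol regulatory element (TCACNCCAC), a CCAAT box (CCAAT) and a GC box (GGGCGG) on either strand.
Hmgcs1: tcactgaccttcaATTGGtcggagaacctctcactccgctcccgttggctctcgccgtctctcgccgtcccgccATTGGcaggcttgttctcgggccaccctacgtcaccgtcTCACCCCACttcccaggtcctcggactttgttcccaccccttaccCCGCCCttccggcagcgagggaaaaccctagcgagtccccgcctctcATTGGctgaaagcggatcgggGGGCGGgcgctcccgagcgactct
Mvk: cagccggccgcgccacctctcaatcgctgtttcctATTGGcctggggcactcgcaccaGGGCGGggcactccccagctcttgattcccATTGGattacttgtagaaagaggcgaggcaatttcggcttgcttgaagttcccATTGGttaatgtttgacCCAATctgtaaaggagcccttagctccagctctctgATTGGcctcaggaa
Mvd: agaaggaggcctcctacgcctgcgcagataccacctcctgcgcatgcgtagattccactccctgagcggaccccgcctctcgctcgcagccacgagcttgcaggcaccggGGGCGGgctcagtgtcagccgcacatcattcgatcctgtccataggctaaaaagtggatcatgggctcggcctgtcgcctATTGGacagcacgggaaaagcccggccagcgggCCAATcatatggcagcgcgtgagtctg
Ggps1: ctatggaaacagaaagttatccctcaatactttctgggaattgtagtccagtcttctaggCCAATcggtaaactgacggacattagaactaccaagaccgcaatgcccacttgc

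RefSeq windows of 300 bases, from 250 before to 50 after the start, were matched for 7 of the 8 members, all but Fdps. The full sterol regulatory element was found in 1 of 7, Hmgcs1, where it lay 137 bases before the start, and in 1.24% of all 32851 windows. The shorter letters CACNCCAC, contained in the full element, were found in 2 of 7, Hmgcs1 and Acat2, and in 6.24% of all windows. A CCAAT box was present in 6 of 7, all but Acat2, against 37.4% of all windows, and Mvk held 5 matches. A GC box was present in 5 of 7 against 35.7%. These matches are descriptions of letters, which were searched with other motifs already looked at, and no binding was measured.

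In control cells the enzymes spanned a wide range of levels. CPM were divided by the exonic length of each gene in kb, so that levels could be compared between genes. Fdps, which makes farnesyl pyrophosphate, stood highest at 117 ± 15.5 CPM per kb (SD, n = 3). Hmgcs1, the cytosolic HMG-CoA synthase, followed at 64.6 ± 12.6 CPM per kb. Idi1, which interconverts the isopentenyl and dimethylallyl forms, was at 52.4 ± 4.15 CPM per kb. The ranges of Hmgcs1 and Idi1 overlapped. Acat2, the thiolase that opens the route, was at 39.9 ± 5.05 CPM per kb. Mvd, the decarboxylase, was at 36.2 ± 4.84 CPM per kb, and Pmvk, the second kinase, at 26.3 ± 5.67 CPM per kb. Acat2 overlapped with Mvd, and Mvd with Pmvk. Mvk, the first kinase, was at 13.98 ± 1.22 CPM per kb and Ggps1, which makes geranylgeranyl pyrophosphate, was lowest at 7.55 ± 0.248 CPM per kb. The highest level per kb was 15.5 times the lowest in control and 8.32 times in DAC+SFN, and the order of the 8 was the same in control, SFN and DAC+SFN.

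**Figure D1:**
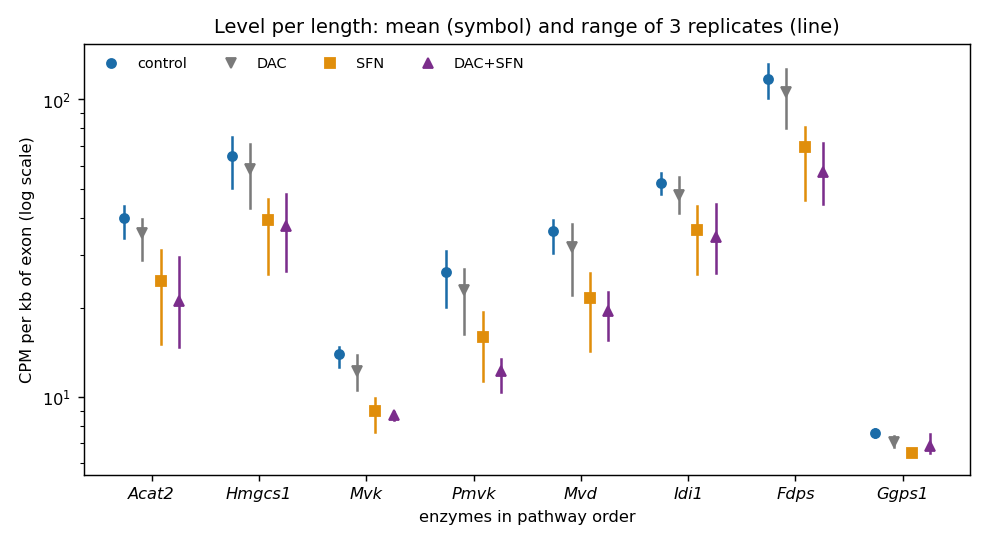
Level of each mevalonate pathway enzyme per kb of exonic length (CPM per kb, log axis) in the 4 groups, in pathway order, with a symbol at the group mean and a line over the range of its 3 replicates. Fdps was highest and Ggps1 lowest in every group, and Ggps1 changed least between groups.

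SFN was compared with control to ask how the tumor cells respond to it alone. Of the 8 enzymes, 7 fell and Ggps1 did not pass the test, against 13.9% of all genes called and 5.65% called lower. The falls were 1.47-fold to 1.74-fold, so none passed a fold of 2. The median log2 difference of the 8 was -0.74, against 0.0040 over all genes. Every SFN library lay below every control library for 8 of 8 enzymes, as for 9.93% of all genes. Calls rest on a fit with the replicate number as a block: without the block 0 of 8 were called in this comparison, with differences of like size (-0.70 for Acat2 and -0.76 for Fdps). Over all genes 23 of 11638 were called without the block and 1619 with it. Without replicate 2, 5 of 8 were called, against 429 of 11547 over all genes. Less RNA per cell and fewer cells of a type cannot be told apart in such bulk libraries. Replicates are separate repeats of 1 cell line. The p-values rest on the scatter left after group and replicate number are fitted, and they cover that line only.

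The entry of the pathway fell with SFN. Acat2 (chromosome 17, 12942890 to 12960747, minus strand, all gene positions in mm10) gave 111, 87.0 and 106 CPM in control replicates 1 to 3. In the SFN libraries Acat2 was at 70.0, 38.3 and 79.3 CPM. The groups did not overlap, and replicate 2 was the lowest library of each. The log2 difference was -0.75 ± 0.13 (SE), a fall of 40.6% (adjusted p = 0.00181, edgeR quasi-likelihood test). Without replicate 2 it was -0.56 with an adjusted p of 0.0768, so the Acat2 call was lost. Hmgcs1 (chromosome 13, 119690379 to 119708260, plus strand), which condenses acetyl-CoA with acetoacetyl-CoA, was at 343, 232 and 316 CPM in control. With SFN, Hmgcs1 was at 209, 119 and 213 CPM. Here too all SFN libraries lay below the controls, although SFN replicate 3 was near control replicate 2. The log2 difference was -0.75 ± 0.089 (adjusted p = 8.19e-05), and -0.65 without replicate 2 (adjusted p = 0.0141).

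The kinases and the decarboxylase, which turn mevalonate into isopentenyl pyrophosphate, fell by like amounts. Mvk (chromosome 5, 114444269 to 114460591, plus strand) was at 39.4, 33.6 and 39.2 CPM in control and 26.6, 20.5 and 25.3 CPM with SFN. Its log2 difference was -0.64 ± 0.079 (adjusted p = 0.000117). Mvk was the member of this trio with the tightest replicates. Pmvk (chromosome 3, 89454541 to 89469013, plus strand) was at 53.2, 34.3 and 47.8 CPM in control and 33.0, 19.4 and 29.5 CPM with SFN. The log2 difference of Pmvk was -0.73 ± 0.083 (adjusted p = 5.49e-05). For Pmvk the highest SFN library was just below the lowest control. Mvd (chromosome 8, 122433601 to 122443422, minus strand) was at 73.2, 56.9 and 71.6 CPM in control and 48.7, 26.6 and 44.4 CPM with SFN. The log2 difference of Mvd was -0.79 ± 0.087 (adjusted p = 4.95e-05). All 3 calls held without replicate 2.

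The prenyl chain steps differed among themselves. Idi1 (chromosome 13, 8885501 to 8892451, plus strand) was at 198, 169 and 184 CPM in control and 138, 91.1 and 153 CPM with SFN. It fell by 0.56 ± 0.11 on the log2 scale (adjusted p = 0.00471), the smallest fall of the 7. Without replicate 2 the Idi1 difference was -0.40 and no longer passed (adjusted p = 0.138), and without replicate 1 it was -0.58 and did not pass either (adjusted p = 0.0602). Fdps (chromosome 3, 89093588 to 89101959, minus strand) was at 556, 425 and 498 CPM in control and 341, 194 and 336 CPM with SFN. The log2 difference of Fdps was -0.80 ± 0.10 (adjusted p = 0.000165), the largest of the 8 in this comparison. Ggps1 (chromosome 13, 14050659 to 14063488, minus strand) was at 36.9, 34.6 and 35.4 CPM in control and 30.1, 30.4 and 31.4 CPM with SFN. The Ggps1 groups did not overlap either, yet the difference of -0.22 ± 0.076 missed the threshold (adjusted p = 0.0719). It passed when DAC+SFN replicate 3 was left out (adjusted p = 0.0351).

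**Figure D2:**
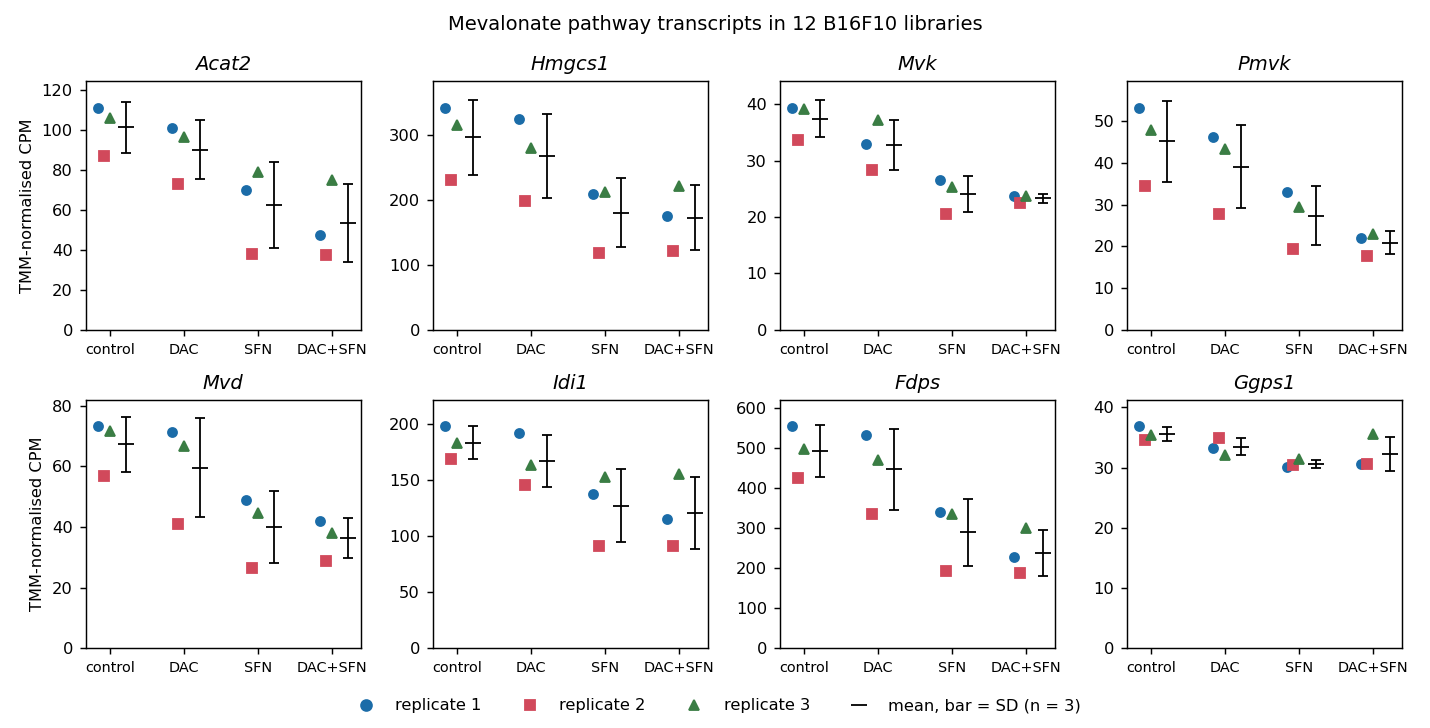
CPM of each enzyme in the 12 libraries, 1 panel per gene with its own axis, by group, with a symbol for each replicate and the mean ± SD beside them. For the 7 enzymes other than Ggps1 the SFN and DAC+SFN libraries lay below the controls, and replicate 2 was the lowest library in most groups.

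SFN added to DAC gave the same 7 calls. This comparison contrasts other libraries than SFN against control. Both come from 1 fit of all 12 libraries with a shared replicate block, so they are not independent. In DAC+SFN against DAC, 7 of 8 enzymes fell, against 16.1% of all genes called and 6.6% called lower. Log2 differences of the 7 ran from -0.48 for Idi1 to -0.90 for Fdps, and Ggps1 was at -0.05 ± 0.077 (adjusted p = 0.701). Groups did not overlap for 3 of 8 enzymes, as for 8.98% of all genes. Without replicate 2, 6 of 8 enzymes were called, against 863 of 11547 over all genes. The Idi1 call was lost when any 1 of DAC replicates 1 and 2 and DAC+SFN replicates 1 and 2 was left out (adjusted p = 0.0532 to 0.0865), and without replicate number 1 (adjusted p = 0.251) or 2 (adjusted p = 0.0936). The Acat2 call was lost without replicate number 1 (adjusted p = 0.0900). Within the replicate numbers, 7 of 8 enzymes were lower in 3 of 3, as were 19.5% of all genes. Without the replicate block 0 of 8 were called, against 20 of 11638 over all genes.

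The mean of these 2 comparisons uses all 12 libraries for 1 value. By this mean SFN difference 7 of 8 enzymes fell, against 29.6% of all genes called and 13.5% called lower, and the median of the 8 was -0.72 against 0.0019 over all genes. Fdps had the largest mean SFN difference, -0.85 ± 0.074, and Pmvk followed with -0.81 ± 0.060. The 95% intervals of the 7 ended at -0.35 or lower, as given by Idi1, which had the interval nearest to 0. The interval of Ggps1 ran from -0.25 to -0.02 and did not overlap any of them (adjusted p = 0.0740). A test of the difference between genes was not run. The Ggps1 value passed without DAC+SFN replicate 3, at -0.18 (adjusted p = 0.0148), without DAC replicate 3 (adjusted p = 0.0420) and without all libraries of replicate 3 (adjusted p = 0.0177). Without the block 6 of the 8 enzymes were called, with Idi1 lost (adjusted p = 0.0504). Without replicate 2, 7 of 8 were called. Over all genes 1052 of 11638 were called without the block and 1653 of 11547 without replicate 2.

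Cells given both drugs were compared with control for the change under the combination. These 7 enzymes fell again, against 31.6% of all genes called and 14.7% called lower. Pmvk and Fdps also passed a fold of 2, as 0.335% of all genes did in that direction. The count of enzymes past this fold changed when libraries or replicate numbers were left out. The comparison shares its control libraries with SFN against control, so the values are given side by side and not as independent. Pmvk was at 21.9, 17.8 and 23.0 CPM with both drugs, all below its controls. Its log2 difference was -1.10 ± 0.085 (adjusted p = 1.48e-06), a 2.14-fold fall. Fdps was at 229, 188 and 301 CPM with both drugs, and fell by 1.06 ± 0.10 on the log2 scale (adjusted p = 7.69e-06), or 2.08-fold. Acat2 was at 47.5, 37.4 and 75.3 CPM and its difference was -0.97 ± 0.14 (adjusted p = 0.000124). In each of these genes every library with both drugs lay below every control library.

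The remaining enzymes had smaller estimated differences with both drugs. A test between genes was not run, and the interval of Mvd (-1.09 to -0.71) lay within that of Acat2 (-1.26 to -0.68). Mvd was at 41.8, 28.9 and 38.0 CPM, with a log2 difference of -0.90 ± 0.088. Hmgcs1 was at 175, 122 and 222 CPM, with a difference of -0.80 ± 0.089. Mvk was at 23.8, 22.5 and 23.7 CPM, with a difference of -0.68 ± 0.080. The 3 Mvk libraries were closer to each other than those of any other enzyme, with a coefficient of variation of 3.19%. Idi1 was at 116, 91.6 and 156 CPM, with a difference of -0.63 ± 0.11. Ggps1 was at 30.7, 30.6 and 35.5 CPM, with a difference of -0.14 ± 0.076 that did not pass (adjusted p = 0.165). Only Ggps1 had a library, replicate 3, inside the control range, so 7 of 8 enzymes had no overlap, as had 14.3% of all genes. Without DAC+SFN replicate 3 the Ggps1 difference was -0.23 and passed (adjusted p = 0.0332). Without the block 4 of 8 were called, namely Mvk, Pmvk, Mvd and Fdps. Without replicate 2, 7 of 8 were called. Over all genes 1201 of 11638 were called without the block and 1762 of 11547 without replicate 2.

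**Figure D3:**
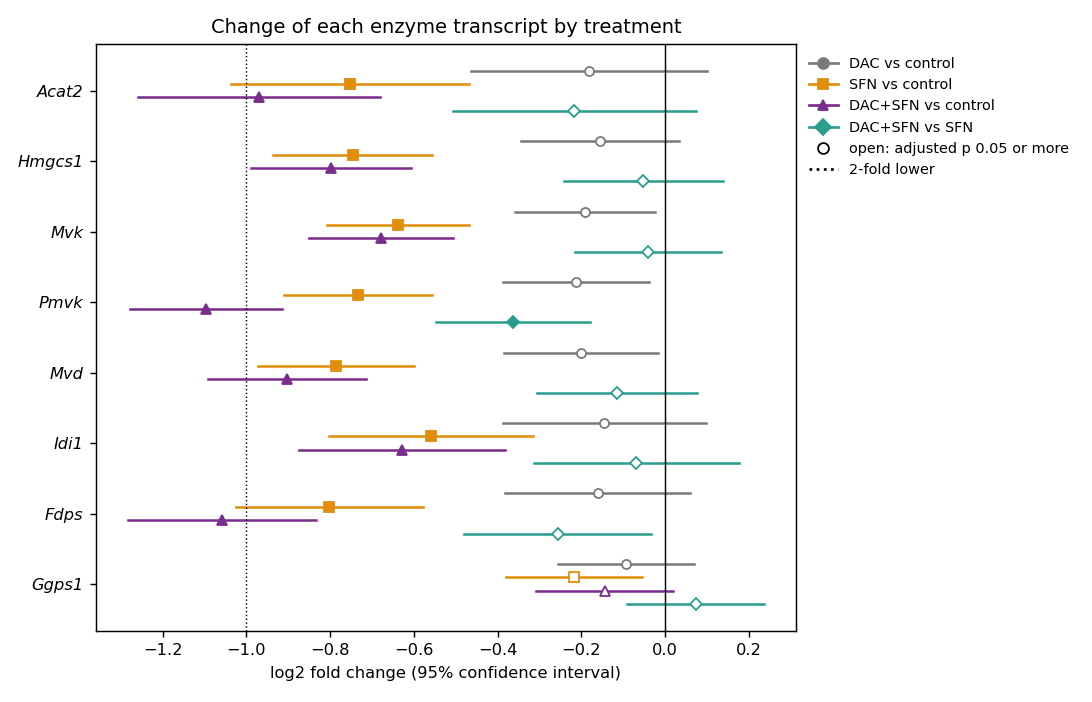
Log2 difference (x axis) of each enzyme in DAC, SFN and DAC+SFN against control and in DAC+SFN against SFN, with lines for the 95% interval, filled points for adjusted p under 0.05 and a dotted line at a 2-fold fall. Pmvk and Fdps reached the lowest values, with both drugs, and the DAC points lay near 0.

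DAC alone changed none of the enzymes by the test. In DAC against control 0 of 8 were called by edgeR, against 0.18% of all genes, all of them higher. At an unadjusted p under 0.05, 3 were lower, namely Mvk, Pmvk and Mvd, against 4.04% of all genes lower at that level. A fit of only the control and DAC libraries called Acat2 (adjusted p = 0.0326), Hmgcs1 (adjusted p = 0.0291) and Pmvk (adjusted p = 0.0459), and DESeq2 called 0. Over all genes the fit of only these libraries called 663 of 11396 and DESeq2 called 83 of 11638. The edgeR fit of all 12 libraries called 21. The 8 log2 differences ran from -0.21 for Pmvk to -0.09 for Ggps1, with adjusted p of 0.389 to 0.728, and 48.1% of all genes had a difference below 0. Pmvk was at 46.1, 27.8 and 43.4 CPM with DAC, and its 95% interval ran from -0.39 to -0.04. Fdps was at 534, 337 and 471 CPM with DAC, with an interval from -0.38 to 0.06. Control and DAC libraries overlapped for all 8 enzymes, while 4.34% of all genes had every DAC library below the controls. Of the 8, 7 were lower in 3 of 3 replicate numbers, as were 20.7% of all genes. A fall of the size seen with SFN lay outside the DAC interval of each of the 7 enzymes that SFN lowered.

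When DAC was added to SFN, Pmvk alone passed the test among the 8. In DAC+SFN against SFN, 1 of 8 was called, against 1.61% of all genes and 0.67% called lower. Pmvk fell by 0.36 ± 0.086 on the log2 scale, or 1.29-fold (adjusted p = 0.0491). Within replicates 1, 2 and 3 the difference was -0.59, -0.13 and -0.36. The call was lost with 2 other scalings, without the block and without any 1 replicate number, replicate 2 included. It was also lost when any 1 library other than DAC replicate 3 and DAC+SFN replicates 2 and 3 was left out (adjusted p = 0.0522 to 0.289). The mean DAC difference over cells with and without SFN also called Pmvk alone, at -0.29 ± 0.059 (adjusted p = 0.0148), against 5.22% of all genes called and 2.15% called lower. That call was lost without the block, without replicate number 1 or 2, and without control replicate 1, SFN replicate 1 or SFN replicate 3. Fdps had a difference of -0.26 ± 0.10 between DAC+SFN and SFN (adjusted p = 0.211), which passed without DAC+SFN replicate 3, at -0.38 (adjusted p = 0.0385). Hmgcs1, Mvk, Mvd and Idi1 lay between -0.12 and -0.04. For the interaction, the difference between the effects of SFN with and without DAC, 0 of 8 were called and 0% of all genes, with 5.87% of all genes and 0 of 8 enzymes at an unadjusted p under 0.05. The 8 estimates ran from -0.15 to 0.17, and the smallest adjusted p over the enzymes in all alternatives tried, DESeq2 included, was 0.625.

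The replicate number moved the same enzymes. It was called for 7 of 8, all but Ggps1 (adjusted p = 0.809), against 33.9% of all genes. In replicate 2 the 7 were lower than in replicate 1 (12.9% of all genes were called lower), by 0.23 (Mvk) to 0.66 (Hmgcs1) on the log2 scale. The 7 were higher in replicate 3 than in replicate 2 (13.8% of all genes were called higher), by 0.25 (Mvk) to 0.68 (Acat2), and 0 of 8 differed between replicates 3 and 1. In control alone, replicate 2 held the lowest summed level of the 8, 1073 CPM, where replicates 1 and 3 held 1411 and 1298. For the totals of counts, replicate 2 held the lowest of the 12 libraries in DAC and the highest in SFN. The part of the totals in the enzyme differences was not tested. The Col1a1 level also moved with the replicate number, at 72.1, 15.6 and 312 CPM in control replicates 1 to 3. Its part in the enzyme differences was not tested.

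**Figure D4:**
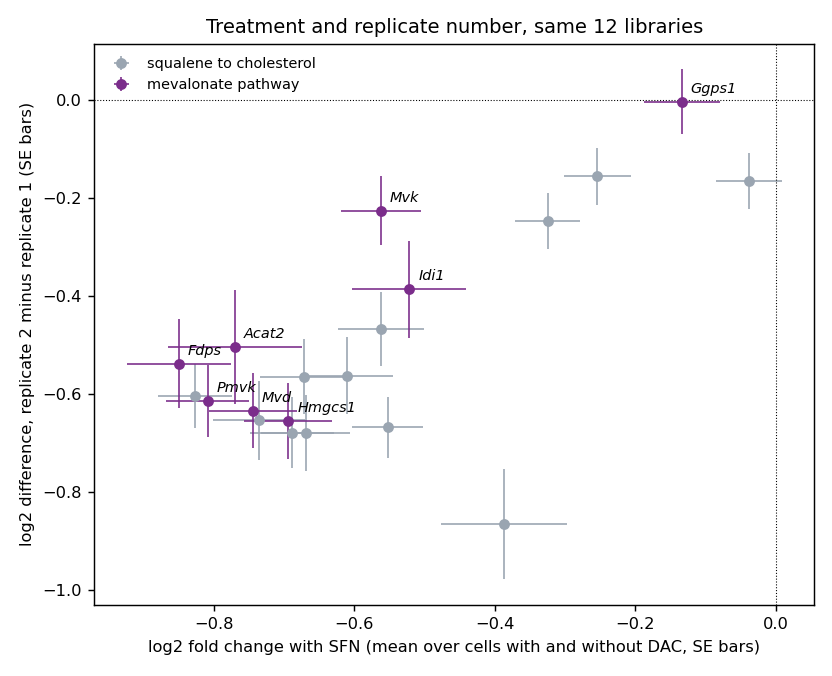
Mean log2 SFN difference of each enzyme (x axis, SE bars) against its log2 difference between replicates 2 and 1 (y axis, SE bars), with the 12 sterol genes from squalene in grey. Ggps1 lay near 0 on both axes and the other 7 lay below 0 on both.

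The enzymes varied together across libraries. The Pearson correlation of log2 CPM over the 12 libraries was 0.848 to 0.988 for the 21 pairs without Ggps1, with a median of 0.944. It was 0.541 to 0.739 for the 7 pairs with Ggps1. With group and replicate means taken out, the 21 pairs ran from -0.3 to 0.97, with a median of 0.507. These points share libraries, scaling, treatment and replicate number, and the values are descriptions. Fdps makes farnesyl pyrophosphate and Ggps1 makes geranylgeranyl pyrophosphate. The ratio of their CPM, which is not corrected for length, was 15.1, 12.3 and 14.1 in control. With SFN the ratio was 11.3, 6.37 and 10.7, and with both drugs 7.46, 6.15 and 8.47. With DAC it was 16.1, 9.65 and 14.6. The SFN and DAC+SFN libraries lay below all controls, while DAC replicate 2 fell within the range of SFN.

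The genes whose pattern over the 12 libraries was most like the mean of the 8 enzymes were named by Pearson correlation. The first was Idh1, the cytosolic isocitrate dehydrogenase that makes NADPH, at 0.99. Of the 10 closest, 5 are enzymes of sterol synthesis from squalene, namely Lss at 0.988, Fdft1 at 0.98, Sc5d and Nsdhl at 0.979 and Cyp51 at 0.976. The others were Csrnp2 at 0.98, Psph, an enzyme of serine synthesis, at 0.979, Prex2 at 0.975 and Slc38a2, an amino acid transporter, at 0.974.

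Genes around the pathway were read from lists set by role. Sterol synthesis from squalene fell with SFN, with 11 of 12 genes lower in the mean SFN difference, 0 higher and a median of -0.59, against 13.5% of all genes lower in it. Lss, which closes the sterol rings, fell by 0.83 ± 0.053 on the log2 scale (adjusted p = 1.67e-07). Fdft1, which joins farnesyl units to squalene, fell by 0.67 ± 0.062, and Sqle, which oxidises squalene, by 0.55 ± 0.051. Cyp51, Nsdhl and Msmo1, which remove methyl groups of the sterol core, fell by 0.69, 0.74 and 0.67. Hsd17b7 did not pass, at -0.04 (adjusted p = 0.570). In DAC against control 0 of the 12 were called.

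Of the 13 genes of the SREBP axis, the regulators and targets of sterol sensing, 8 were lower and 0 higher in the same mean, against 13.5% of all genes lower, with a median of -0.18. Insig1, which holds SREBP in the endoplasmic reticulum, fell by 0.77 ± 0.056. Srebf2, the factor itself, fell by 0.42, Srebf1 by 0.33 and the sterol carrier Stard4 by 0.52. Of 6 genes that supply acetyl-CoA 3 were lower and 0 higher, against the same 13.5%, with Acly, which splits citrate, at -0.35, Slc25a1, which exports it, at -0.43 and Acss2, which activates acetate, at -0.40. The count of the SREBP axis was 5 without the block.

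For genes that use the prenyl products, the share called was no larger than the 29.6% of all genes called in the mean SFN difference. Of 10 genes of protein prenylation 1 was lower, Chml at -0.44 (adjusted p = 0.0235), and 1 higher, Rabggtb at 0.12 (adjusted p = 0.0248), with a median of 0.0069. Both serve Rab geranylgeranylation. Of 11 genes of dolichol, ubiquinone and other isoprenoid use, Srd5a3 was lower at -0.21 (adjusted p = 0.0426), and Nus1 and Dolk, which make dolichol and its phosphate, were higher at 0.15 (adjusted p = 0.0184) and 0.18 (adjusted p = 0.0318). The median of that list was 0.066. Each of these 5 calls was lost without the block and without replicate 2. In DAC against control 0 genes were called in any of these lists.

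**Figure D5:**
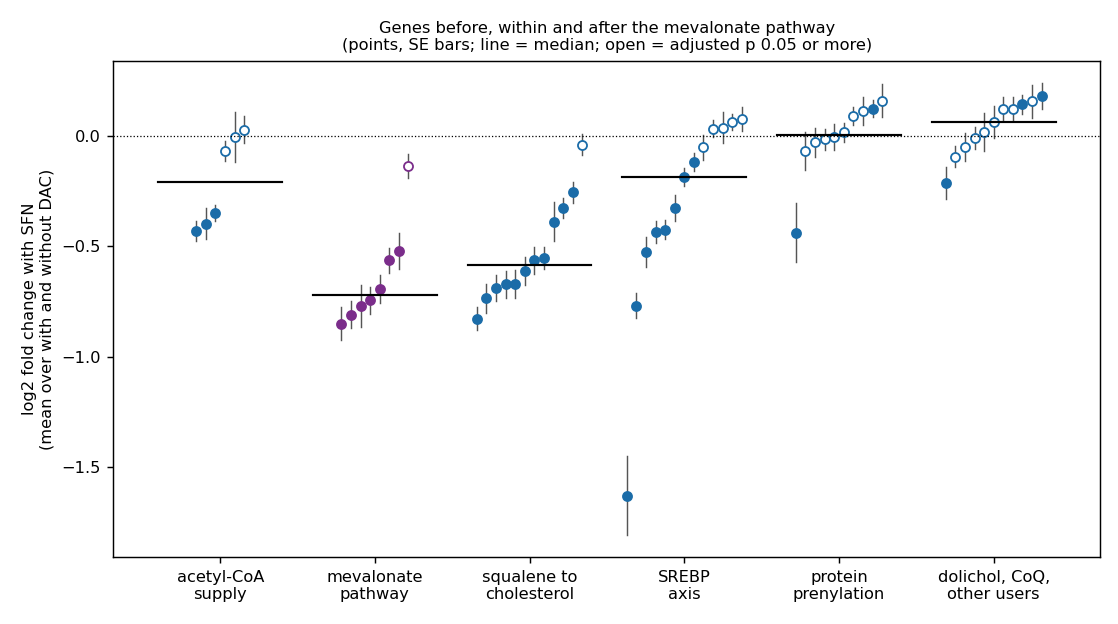
Mean log2 SFN difference of each tested gene of the enzymes and of the lists around the pathway, with 1 point and SE bar per gene, filled where adjusted p was under 0.05, and a line at the list median. The enzymes and the sterol genes from squalene lay well below 0, while the prenylation and isoprenoid user genes were centred near 0.

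Related genes and neighbours were read separately. Acat1, the mitochondrial thiolase, was at -0.07 in the mean SFN difference (adjusted p = 0.299). Tcp1, a chaperonin subunit gene beside Acat2, was at -0.0021 (adjusted p = 0.975). Acat3 and Idi2, close copies of Acat2 and Idi1, had at most 6 and 2 counts in a library and did not pass the filter. Mmab, an enzyme of cobalamin metabolism, lies head to head with Mvk, with 241 bases between their starts, and fell by 0.25 ± 0.054 (adjusted p = 0.00281), where Mvk fell by 0.56 ± 0.057. The Mmab call was lost without the block.

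Overlapping annotation touches 4 enzymes. Exons of Ggps1 share 257 bases, 5.44% of its exonic length, with Arid4b on the opposite strand, which had 461 to 883 counts. Exons of Fdps share 1124 bases, 26.7%, with the gene model Gm43738 on the same strand. Exons of Hmgcs1 and Idi1 share 12.1% and 9.22% with models on the opposite strand. The strand setting of the counting is not given in the sources used here, so reads in these shared stretches are uncertain in origin.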

How the data were processed

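Poly(A) RNA from 12 cultures was sequenced as single 75-base reads from a stranded kit. The authors trimmed reads (Trimmomatic 0.38), aligned them to mm10 (TopHat2 2.1.1) and deposited raw counts per gene made with HTSeq, whose strand setting is not given in the sources used here. The counts of each sample were joined by gene symbol. The filter kept 11638 of 24421 genes, those that reached 1 CPM (16 to 27 counts) in 3 or more libraries. Libraries were scaled by TMM and fitted in edgeR 4.0.16 (R 4.3.3) with group and replicate number in 1 quasi-likelihood model over all 12 libraries. The two-sided tests were adjusted by Benjamini-Hochberg over all genes tested, and called at adjusted p under 0.05. Replicate number was kept as a block because the study's methods corrected for batch. It was also kept because samples of the same number deviated together (18 pairs, correlation 0.27 to 0.732). The 36 pairs of different number ran from -0.597 to 0.282. Deviations from a mean of 3 libraries cancel out within a group, which pushes those pairs to negative values. The contrast is therefore partly built in. Levels per kb used exonic lengths of the mm10 annotation. Sequences are from RefSeq.

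The members and lists were chosen with earlier results of these data known. Named genes are the 8 members, at most 6 called genes per list with the smallest adjusted p, the related genes and neighbours, and the 10 genes most correlated with the members. Hsd17b7, Arid4b, Col1a1, Col1a2 and Pdgfra were named after their values were seen. Alternatives covered DESeq2 1.42.0, other scalings, filters and prior count, no block, separate fits of the groups compared and leaving out replicates. Some genes of the pathway and of the lists are not reported here.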

Additional observations from a re-analysis of the deposited data

How the results depend on the processing

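The calls in comparisons of 2 groups depended on the replicate block. Without it the count of enzymes called was 0 in SFN against control, 4 in DAC+SFN against control, 0 in DAC+SFN against DAC, 0 in DAC+SFN against SFN and 0 in the mean DAC difference, where the blocked fit gave 7, 7, 7, 1 and 1. Over all 11638 genes the counts without it were 23, 1201, 20, 0 and 1. With the block they were 1619, 3683, 1879, 187 and 607. The mean SFN difference kept 6 of its 7 calls without the block, all but Idi1 (adjusted p = 0.0504). In DAC+SFN against SFN the count was also 0 with DESeq2 size factors in edgeR, with upper quartile scaling and with at least 10 counts in every library. Fits of only the groups compared gave 3 in DAC against control and 2 in DAC+SFN against SFN. Over all genes those fits called 663 of 11396 and 1267 of 11460, against 21 and 187 of 11638 in the fit of all 12 libraries. Without a filter on low counts the mean DAC difference had 2 calls. When libraries or replicate numbers were left out, the count ran from 0 to 2 in DAC+SFN against SFN, from 0 to 4 in the mean DAC difference, from 0 to 3 for a fold above 2 in DAC+SFN against control, from 0 to 2 for a fold above 2 in DAC+SFN against DAC, and from 0 to 7 for the replicate number, with 0 when replicate 2 was left out. The same exclusions turned the sign of small differences. In DAC+SFN against SFN, Hmgcs1 ran from -0.18 to 0.049, Mvk from -0.13 to 0.020, Idi1 from -0.24 to 0.024 and Ggps1 from -0.012 to 0.11. Ggps1 ran from -0.16 to 0.00525 in DAC+SFN against DAC, from -0.052 to 0.017 in the mean DAC difference, from -0.043 to 0.026 between replicates 2 and 1 and from -0.00612 to 0.087 between replicates 3 and 2. With the longest transcript as length, the control levels per kb were 45.1 for Acat2, 85.7 for Hmgcs1, 15.7 for Mvk, 37.8 for Pmvk, 60.7 for Idi1, 167 for Fdps and 8.39 for Ggps1, which put Pmvk above Mvd. The cause of these shifts was not tested. The exclusions also leave fewer samples in the fit. Other scalings moved the median of all genes by at most 0.0145 on the log2 scale.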
